A study of Homo sapiens with 48 samples.

Results

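RNA levels of 36 genes of the endoplasmic reticulum (ER) were examined in HEK293T cells after NCBP1-specific hydroxynonenylation by T-REX. The genes were chosen by name as the ER chaperones, the ER-associated degradation machinery and the translocon, and all 36 were found among the 14685 genes of the deposited count tables. HEK293T is a human embryonic kidney line, and the cells expressed NCBP1, a subunit of the nuclear cap-binding complex, as a fusion to Halo from a transfected plasmid. RNA was collected at 3, 6 and 12 h from 4 arms with 4 replicates each, 48 libraries in all. In the T-REX arm, the Halo-bound photocaged probe Ht-PreHNE was uncaged with light. This releases the lipid-derived electrophile 4-hydroxynonenal, or its alkyne analog if the probe is the alkyne form, beside NCBP1. The study's methods list the alkyne form for T-REX in the plates used for RNA-seq. The 3 controls carry the names DMSO, light alone and probe alone. According to the study's methods, DMSO cells got neither probe nor light, probe alone cells got no light, and light alone cells got both, so that by its listed reagents light alone cannot be told apart from T-REX. The sample labels call this arm a UV control and its name speaks of light only, so the listing of the probe may be an error, and what a difference between T-REX and light alone isolates is uncertain. All arms, the controls included, carried the plasmid, and transfected and untransfected cells were sequenced together.

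Proteins that enter the secretory pathway are threaded into the ER through the SEC61 channel and folded there by HSP70 and HSP90 class chaperones, by lectin chaperones that read N-glycans, and by disulfide isomerases. Proteins that fail to fold are drawn back to the cytosol, ubiquitinated and degraded, a route called ER-associated degradation (ERAD). When unfolded protein builds up, the sensors ERN1 (IRE1), EIF2AK3 (PERK) and ATF6 start the unfolded protein response, in which spliced XBP1 and cleaved ATF6 raise transcription of many chaperone and ERAD genes.

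XBP1 and ATF6 are known for their action through the ER stress response element, ERSE (letters CCAAT, 9 bases of any kind, CCACG), and the shorter ERSE-II (ATTGG, 1 base of any kind, CCACG). These were sought on both strands of RefSeq promoter windows (GRCh38.p14, 250 bases before to 50 after the transcript start), which were found for 34 of the 36 genes. ERSE was present in 6 of the 34 windows (17.6%), against 14 of the 10443 windows of tested genes (0.134%). ERSE-II was present in 3 of the 34 (8.82%), against 12 of the 10443 (0.115%). The windows of tested genes include those of the 34. Both elements were sought for their known role in ER stress, so these shares are a description and no test. The elements fell in 9 different genes. The other 25 genes with a window held neither. The elements are printed 5′ to 3′ on the strand that reads as the element, with its fixed bases in capitals.
HSPA5, chr9:125241391-125241409, gene on the minus strand: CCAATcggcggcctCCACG
HSP90B1, chr12:103930216-103930234, plus strand: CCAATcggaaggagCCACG
HSP90B1, chr12:103930321-103930339, plus strand, element reversed: CCAATcgcgccgcaCCACG
CRELD2, chr22:49918554-49918572, plus strand, element reversed: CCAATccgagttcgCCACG
CALR, chr19:12938384-12938402, plus strand, element reversed: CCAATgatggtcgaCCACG
CANX, chr5:179698778-179698796, plus strand: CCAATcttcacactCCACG
ERO1B, chr1:236282183-236282201, minus strand, element reversed: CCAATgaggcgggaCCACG
HERPUD1, ERSE-II, chr16:56932025-56932035, plus strand: ATTGGgCCACG
SDF2L1, ERSE-II, chr22:21642114-21642124, plus strand, element reversed: ATTGGtCCACG
HYOU1, ERSE-II, chr11:119057274-119057284, minus strand, element reversed: ATTGGaCCACG
HYOU1 held a second ERSE-II of the same letters further upstream, which overlapped a match to the core of the unfolded protein response element (TGACGTGG). That core was found in 2 of the 34 windows (HYOU1 and DNAJC10, 5.88%) and in 1.02% of those of tested genes. The CARE letters TGATGNAA, of the kind that ATF4 binds, were found in 1 of the 34 (HERPUD1, 2.94%) and in 1.61% of those of tested genes. A match is a run of letters and was not tested for binding here.

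The setting of the elements is given for the 2 genes whose T-REX response is described in most detail below, as 120 bases of the gene's own strand from 150 to 31 bases before the transcript start, with the fixed bases of ERSE or ERSE-II in capitals.
HSPA5, chr9:125241374-125241493: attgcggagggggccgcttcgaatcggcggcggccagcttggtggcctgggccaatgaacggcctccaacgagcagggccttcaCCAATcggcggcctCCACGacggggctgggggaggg
HERPUD1, chr16:56931992-56932111: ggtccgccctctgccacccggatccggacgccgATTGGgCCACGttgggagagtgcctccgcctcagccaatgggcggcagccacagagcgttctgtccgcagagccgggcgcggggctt

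Levels were compared as CPM, each count scaled to a common library size after multiplying the library's total by its TMM scaling factor. Totals ran from 23952455 to 37099535 counts per library, with a median of 29405598.5 and TMM factors from 0.954 to 1.05. Of genes known from HEK293T, VIM ranged from 437 to 668 CPM over the 48 libraries, while KRT8 (4.39 to 10.4 CPM) and KRT18 were low, and of 7 markers of other cell types only COL1A1 was listed, at 2.13 to 6.07 CPM. NCBP1, whose reads from the plasmid cannot be told apart from those of the cell's own gene, averaged from 34640 CPM (DMSO, 12 h) to 82940 CPM (probe alone, 6 h).

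Per kilobase of merged exons, the mean level over all libraries was highest for the membrane lectin chaperone CANX (calnexin), at 225 CPM per kb. The lumenal HSP90 paralog HSP90B1 (GRP94) followed at 108 CPM per kb, then the lectin CALR (calreticulin) at 98.9 and the channel subunit SEC61A1 at 66.2 CPM per kb. HSPA5 (BiP), the lumenal HSP70, ranked sixth at 53.4 CPM per kb. The lowest were the HSP70 cofactor SDF2L1 (1.56 CPM per kb) and the secreted ER protein CRELD2 (1.0 CPM per kb), at 1.71 and 5.18 CPM.

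The first question was whether T-REX changed these genes against its 3 controls. For each time, edgeR was fitted to its 16 libraries at once, and a difference was called where the quasi-likelihood p, adjusted by Benjamini-Hochberg across the 14685 genes, was at most 0.05. In these bulk samples, fewer responding cells and a smaller change per cell cannot be told apart. Across the 9 comparisons of T-REX with a control, 9 of the 36 genes (25%) were called at least once and 27 in none, beside 14.9% of all tested genes called at least once. The 14 calls comprised 10 higher and 4 lower under T-REX. Of the 14, 11 (78.6%) were against DMSO, near the 82.9% of the 3062 calls over all genes. Against at least 2 of the 3 controls in the same direction, HERPUD1 and SELENOS were higher at 3 h (2 of 36, with 0.947% of all tested genes meeting the same rule), none of the 36 met it at 6 h (0.136% of all genes), and HSPA5 was the member higher at 12 h (1 of 36, with 1.4% of all genes). The sizes were small throughout, the largest called log2 fold change being 0.50. In simulated counts with these libraries' depth and spread, a log2 fold change of 0.4 between T-REX and DMSO was recovered in 49%, 47% and 58% of changed genes at the 3 times, and one of 0.2 in 3%, 5% and 7%. Each size was given to 100 genes, drawn from those with a mean above 100 counts. In the data, 880, 61 and 1598 genes were called against DMSO at the 3 times, so these shares may not carry over to the 36.

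HERPUD1 (ENSG00000051108), an ER membrane ubiquitin-like protein that assembles the HRD1 ligase complex of ERAD, had the largest of the called differences. At 3 h it stood at 48, 42.1, 44.8 and 48.1 CPM in the T-REX libraries. The probe alone libraries had 37.5, 33.9, 33.3 and 34.1 CPM, and those with DMSO 32.9, 32.3, 31.6 and 33.1 CPM. Every T-REX library was above every library of these 2 controls. With light alone the values were 37.2, 46.5, 38.7 and 40.8 CPM, which overlapped those of T-REX. The log2 fold change was 0.50 against DMSO (SE 0.072, adjusted p = 0.00104) and 0.41 against probe alone (SE 0.071, adjusted p = 0.00817). Against light alone it was 0.16 and not called (adjusted p = 0.282). Both calls held in all 8 fits that each left out 1 library of the 2 arms compared, but that against probe alone was lost when only those 2 arms were fitted (adjusted p = 0.0728).

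The difference in HERPUD1 was not called later. At 6 h the T-REX libraries had 32.5, 31.5, 30.8 and 36.8 CPM and those with DMSO 32.4, 31.6, 29.9 and 32.5 CPM, with a log2 fold change of 0.06 (adjusted p = 0.837). At 12 h, T-REX stood at 33.1, 31.3, 30.5 and 29.9 CPM and DMSO at 31.2, 27.7, 32.4 and 30.2 CPM (log2 fold change 0.04, adjusted p = 0.795). The T-REX libraries at both later times were instead all above those with light alone, which had 26.6, 25.4, 30.7 and 28.2 CPM at 6 h and 27.2, 25, 22.9 and 27.7 CPM at 12 h, although neither difference was called (log2 fold change 0.24 and 0.28, adjusted p = 0.214 and 0.0802). A change of the T-REX effect from 3 to 12 h, taken against the mean of the 3 controls, was -0.25 on the log2 scale (adjusted p = 0.218).

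SELENOS (ENSG00000131871), a selenoprotein of the ER membrane that takes part in the extraction of ERAD substrates, was the other gene higher at 3 h. The T-REX libraries had 35.6, 36.7, 34.9 and 32.9 CPM, against 28.3, 28.1, 29.3 and 27.3 CPM with light alone and 27.6, 30.9, 28.4 and 29.3 CPM with DMSO, without overlap. The probe alone libraries, at 33.5, 33.3, 32.7 and 31 CPM, lay between these and overlapped T-REX. The log2 fold change was 0.31 against light alone (SE 0.061, adjusted p = 0.0301), 0.27 against DMSO (SE 0.061, adjusted p = 0.0117) and 0.12 against probe alone (adjusted p = 0.31). Against light alone the call did not survive leaving out T-REX replicate 2 or any 1 of the 4 light alone libraries, nor leaving out probe alone replicate 3 or DMSO replicate 4, which share the fit. That against DMSO was lost without DMSO replicate 1, and both calls when only the arms compared were fitted, with adjusted p up to 0.264 and 0.079 over the alternatives. At 6 h the T-REX libraries had 27.9, 23.7, 25.4 and 23.9 CPM and at 12 h 23.2, 21.8, 20 and 24.6 CPM, overlapping all controls, with log2 fold changes from 0.03 to 0.13.

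HSPA5 (ENSG00000044574), the main HSP70 of the ER lumen, which also holds the stress sensors inactive in resting cells, showed a small difference of the same sign at each time. At 3 h the T-REX libraries had 302, 325, 366 and 303 CPM, those with light alone 239, 280, 245 and 274 CPM, and those with DMSO 257, 278, 239 and 256 CPM. All 4 T-REX libraries were above these 8, while the probe alone libraries (322, 326, 304 and 264 CPM) overlapped them. The log2 fold change was 0.34 against DMSO (SE 0.073, adjusted p = 0.012), 0.32 against light alone (adjusted p = 0.0713, not called) and 0.11 against probe alone (adjusted p = 0.443). The call against DMSO held in all 8 fits without a library of these arms.

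At 6 h, HSPA5 stood at 211, 213, 219 and 201 CPM under T-REX, 156, 198, 158 and 196 CPM with light alone, 168, 161, 185 and 180 CPM with DMSO, and 207, 181, 181 and 186 CPM with probe alone. T-REX was again above every light alone and DMSO library, with log2 fold changes of 0.25 and 0.28 that were not called (adjusted p = 0.155 and 0.0782). At 12 h the T-REX libraries had 169, 170, 159 and 159 CPM, where light alone had 141, 148, 139 and 144, DMSO 156, 138, 134 and 149, and probe alone 169, 156, 158 and 156 CPM. By their means the arms were ordered as before, with T-REX and probe alone above light alone and DMSO. T-REX was higher than light alone by 0.21 (SE 0.05, adjusted p = 0.0372) and than DMSO by 0.18 (SE 0.05, adjusted p = 0.0201) on the log2 scale, and the difference from probe alone was 0.04 (adjusted p = 0.837). The call against light alone was lost in each of the 8 fits that left out 1 library of the 2 arms, and without probe alone replicate 2 or 3. That against DMSO did not hold after removal of T-REX replicate 1 or 2 or DMSO replicate 2, and in the fit of these 2 arms only (adjusted p = 0.104). Probe alone against DMSO at 12 h gave 0.14 for HSPA5 (adjusted p = 0.0862).

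The level of NCBP1 moved with that order at 12 h. It was 57500 ± 5340 CPM (mean ± SD, n = 4) under T-REX and 59150 ± 10000 with probe alone, against 40520 ± 6850 with light alone and 34640 ± 4550 with DMSO. Its 3 h means were 75860 ± 15200, 64590 ± 4240, 61370 ± 6530 and 53850 ± 6160 CPM in the same order of arms, and at 6 h 72830 ± 5960, 82940 ± 12000, 41700 ± 8910 and 53740 ± 5900 CPM. The part of NCBP1 expression in the HSPA5 difference was not tested.

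**Figure D1:**
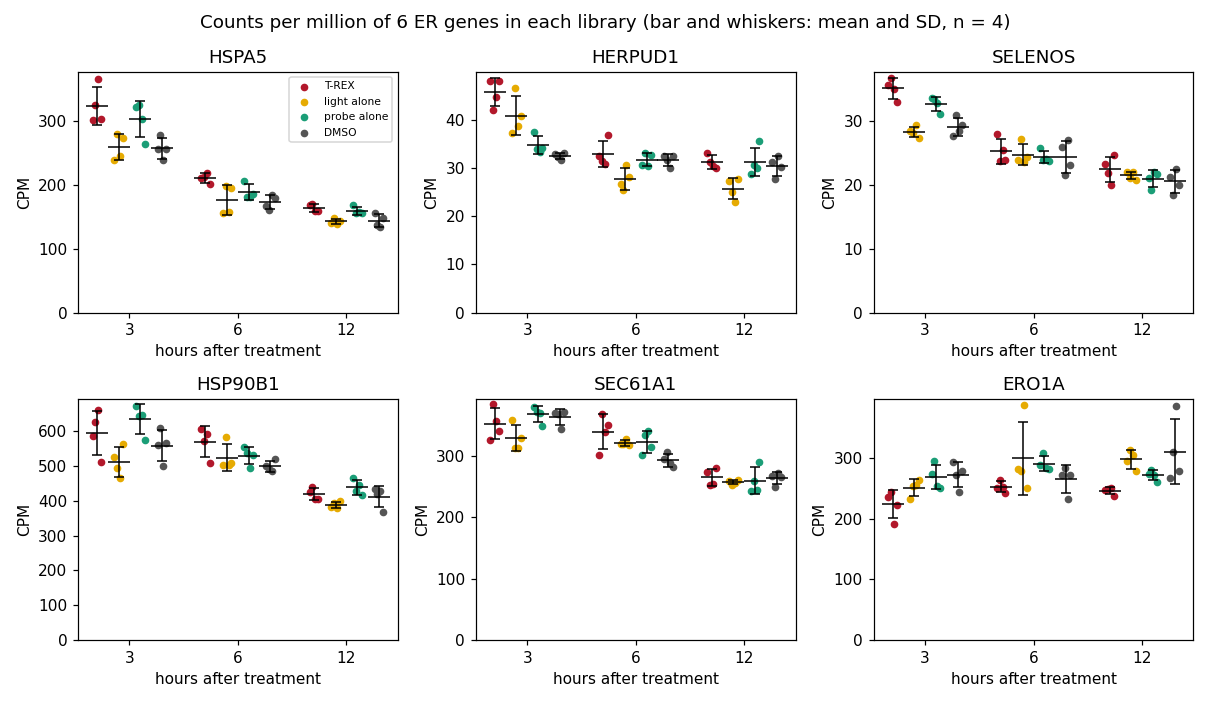
Levels in CPM of HSPA5, HERPUD1, SELENOS, HSP90B1, SEC61A1 and ERO1A in each of the 48 libraries (points, coloured by arm) at 3, 6 and 12 h, with the mean and SD of each group of 4 in black. HSPA5 under T-REX averaged 324 CPM at 3 h and 164 CPM at 12 h, and the fall with time is larger than the distance between arms.

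Among the other lumenal chaperones, all 9 members had positive log2 fold changes at 3 h against light alone (median 0.232) and against DMSO (median 0.211), and 7 of the 9 against probe alone (median 0.108). Of these, 2 were called, both against DMSO, where 5.99% of all tested genes were called. Besides HSPA5 this was MANF, a secreted ER stress protein, which was named after its values were seen. MANF had 40.1, 45.2, 57.2 and 40.6 CPM under T-REX and 32, 33.7, 33.5 and 34.2 CPM with DMSO, without overlap, and a log2 fold change of 0.46 (SE 0.085, adjusted p = 0.004). It was lost only in the fit of the 2 arms alone (adjusted p = 0.0509). HSP90B1 had 585, 625, 660 and 511 CPM under T-REX at 3 h, 559, 609, 500 and 565 with DMSO, 527, 493, 465 and 564 with light alone, and 673, 643, 647 and 574 with probe alone. The arms overlapped, and the log2 fold changes of 0.10, 0.22 and -0.08 against the controls in that order were not called. At 12 h, HSP90B1 under T-REX (426, 439, 406 and 404 CPM) lay above light alone (382, 394, 380 and 398) and overlapped probe alone (466, 427, 445 and 415) and DMSO (434, 418, 428 and 368), again without a call. The cofactors DNAJC3, HYOU1 and DNAJB9 were not called in any of the 9 comparisons. DNAJB9, a DnaJ partner of BiP, had a positive log2 fold change in all 9, from 0.10 to 0.34. The largest log2 fold changes of the whole group belonged to SDF2L1 at 3 h, with 0.90 against light alone, 0.74 against DMSO and 0.59 against probe alone, but its T-REX libraries (1.79, 2.43, 4.05 and 3.29 CPM) overlapped those of all controls and the standard errors of 0.30 and 0.31 left it uncalled (adjusted p from 0.158 to 0.306).

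The lectin chaperones CANX and CALR were called in no comparison of T-REX with a control, and their log2 fold changes lay within 0.14 of 0. Of the 7 disulfide isomerases and oxidases, none was higher by the test, and 2, named after their values were seen, were lower against DMSO. Against DMSO, 5.99% of all tested genes were called at 3 h and 10.9% at 12 h. ERO1A, the oxidase that recharges the disulfide isomerases and a known target of hypoxia signalling, was lower at 3 and 12 h. At 3 h it had 235, 244, 191 and 223 CPM under T-REX and 293, 272, 244 and 279 CPM with DMSO (log2 fold change -0.28, SE 0.07, adjusted p = 0.0231). The groups overlapped at 244 CPM, and the call was lost without T-REX replicate 4, without DMSO replicate 1, 2 or 4, and with only the 2 arms fitted (adjusted p = 0.0898). At 12 h the T-REX libraries had 247, 248, 250 and 237 CPM, below all those with DMSO (266, 310, 385 and 278), light alone (294, 313, 305 and 278) and probe alone (273, 280, 272 and 260). The log2 fold change was -0.34 against DMSO (SE 0.079, adjusted p = 0.00889), -0.27 against light alone (adjusted p = 0.0959) and -0.15 against probe alone (adjusted p = 0.523). The call at 12 h held in the 8 fits without a library and was lost with only the 2 arms fitted (adjusted p = 0.0693). PDIA6, an isomerase, was lower at 12 h than with DMSO (137, 143, 136 and 136 against 158, 162, 172 and 149 CPM, log2 fold change -0.22, SE 0.052, adjusted p = 0.00925), a call lost with only the 2 arms fitted (adjusted p = 0.0635). It was likewise lower with probe alone than with DMSO (log2 fold change -0.19, adjusted p = 0.0311), the only call of a member between 2 controls. That call was lost in 5 of the 8 fits without a library (probe alone replicate 1, 2 or 4, or DMSO replicate 2 or 3) and with only the 2 arms fitted, with adjusted p up to 0.193. The 5 others of this role, DNAJC10, P4HB, PDIA4, PDIA3 (whose reads may be shared with its pseudogene PDIA3P1) and ERO1B, were not called.

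In ERAD, HERPUD1 and SELENOS were 2 of the 10 members called at 3 h. Of all tested genes, 5.99% were called then against DMSO, 0.197% against light alone and 1.05% against probe alone, and 10.9% against DMSO at 12 h. DERL1, a channel protein of the retrotranslocation complex that was named after its values were seen, was lower at 12 h against DMSO, with 50.7, 57.4, 57.3 and 53.0 CPM under T-REX and 68.8, 65.8, 72.8 and 62.3 CPM with DMSO (log2 fold change -0.31, SE 0.064, adjusted p = 0.00336). The groups did not overlap, and the call held in every fit without a library of these arms. Against light alone and probe alone its log2 fold changes were -0.16 and -0.17 and not called. The mannosidase-like proteins EDEM1 and EDEM3, the ligase SYVN1 (HRD1) and its partner SEL1L, the most abundant members of the role, had log2 fold changes within 0.2 of 0 in all 9 comparisons and no call. EDEM2, named after its values were seen, had 0.43 against light alone, 0.36 against DMSO and 0.34 against probe alone at 6 h, with adjusted p of 0.242, 0.277 and 0.669.

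In the translocon, 1 of 7 members was called at 3 h and 1 at 6 h, each higher against DMSO and named after its values were seen. Of all tested genes, 5.99% and 0.415% were called against DMSO at these times. SEC61B, the small beta subunit of the channel, had 42.7, 38.6, 55.7 and 37.3 CPM under T-REX at 3 h and 33, 36, 34.2 and 33.6 CPM with DMSO (log2 fold change 0.35, SE 0.099, adjusted p = 0.0392). Its T-REX replicate 3 was the highest of all, and the call was lost without it, without any 1 of the 4 DMSO libraries, without probe alone replicate 1 or 3, with a replicate block and with only the 2 arms fitted (adjusted p up to 0.134). SSR3, of the translocon-associated protein complex, had 301, 332, 314 and 295 CPM under T-REX at 6 h and 270, 259, 230 and 257 CPM with DMSO (log2 fold change 0.29, SE 0.062, adjusted p = 0.0341), a call lost without T-REX replicate 1, 2 or 3, DMSO replicate 1 or 3, or probe alone replicate 1. The channel subunit SEC61A1 was called in no comparison of T-REX. At 3 h it had 326, 385, 356 and 341 CPM under T-REX, 370, 368, 343 and 371 with DMSO, 358, 313, 313 and 329 with light alone, and 380, 372, 370 and 349 with probe alone. At 12 h it had 274, 253, 254 and 280, then 267, 249, 272 and 266, then 259, 253, 256 and 261, and 243, 259, 245 and 290 CPM in the same order of arms, and the groups overlapped at both times. WFS1, a regulator of ER calcium, had its largest log2 fold change at 12 h against DMSO (-0.39, adjusted p = 0.0709).

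**Figure D2:**
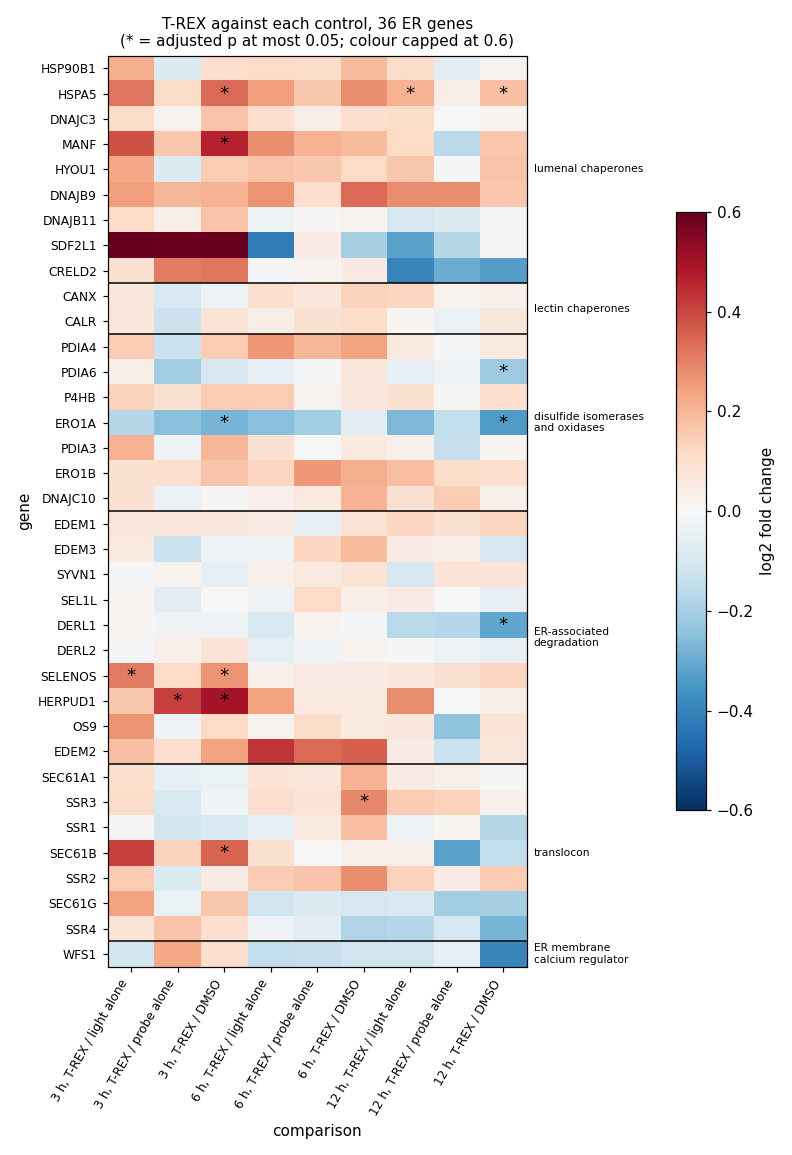
Log2 fold change of T-REX against each control (columns, by time) for the 36 genes (rows, grouped by role and ordered by level per kb). Red is higher and blue lower under T-REX, asterisks mark the 14 calls, and the colour scale stops at 0.6, below the 3 h values of SDF2L1 against light alone and DMSO.

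Read over all 36 genes, the shift under T-REX was small and depended on the control. At 3 h, 32 of 36 log2 fold changes were positive against light alone (median 0.111, against 0.000631 over all tested genes), 18 against probe alone (median -0.000913 against 0.0235) and 26 against DMSO (median 0.107 against 0.0309). The calls were 1, 1 and 6 of 36, beside 0.197%, 1.05% and 5.99% of all genes. At 6 h, 23, 29 and 30 were positive (medians 0.0486, 0.0613 and 0.0823), with 0 edgeR calls against light alone (8 had an unadjusted p up to 0.05, and DESeq2 called 0), 0 against probe alone (7 unadjusted, 1 by DESeq2) and 1 against DMSO, beside 0.218%, 0.109% and 0.415% of all genes. Of all 14685 genes, 1711 and 964 had such an unadjusted p against light alone and probe alone, and DESeq2 called 153 and 57. At 12 h, 24, 15 and 22 were positive (medians 0.0495, -0.00649 and 0.0265), with 1 call against light alone, 0 against probe alone (7 unadjusted, 0 by DESeq2) and 4 against DMSO, beside 1.29%, 0.701% and 10.9% of all genes. Against probe alone, 1637 of all genes had such an unadjusted p and DESeq2 called 241. The 3 comparisons at a time share the T-REX libraries. With the 2 deposited factors of unwanted variation per library as covariates, the calls among members rose to 14, 6 and 13 at 3 h, 10, 3 and 12 at 6 h, and 12, 7 and 10 at 12 h. Those over all genes rose as well, to 11.8%, 17.4% and 20.8% at 3 h, 8.19%, 1.75% and 7.14% at 6 h, and 8.62%, 6.14% and 26.7% at 12 h. Under that model 11 members (and 14.4% of all genes) met the rule of at least 2 of 3 controls at 3 h, namely HSPA5, HYOU1, SDF2L1, MANF, PDIA3, PDIA4, P4HB, HERPUD1, SELENOS and SEC61B (higher) and ERO1A (lower).

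Only 1 member was called between controls. Light alone against DMSO gave no called member by edgeR at 3, 6 or 12 h (5, 6 and 6 had an unadjusted p up to 0.05, and DESeq2 called 1, 0 and 0), beside 0.00681%, 0.00681% and 0.0136% of all genes. Of all 14685 genes, 1143, 2109 and 1525 had such an unadjusted p, and DESeq2 called 17, 133 and 20. With probe alone against DMSO, 0, 0 and 1 member were called (11, 4 and 10 unadjusted, and 0, 0 and 3 by DESeq2), beside 0.00681%, 0.0272% and 5.11% of all genes. For all genes the unadjusted counts were 751, 1206 and 3422, and those by DESeq2 were 1, 27 and 1279. Between light alone and probe alone there were 0 calls of members at each time (18, 3 and 10 unadjusted, and 6, 0 and 2 by DESeq2), beside 0.232%, 0.0613% and 0.415% of all genes. There the unadjusted counts for all genes were 2060, 1236 and 1856, and those by DESeq2 were 203, 59 and 258. At 3 h, 31 of the 36 were nonetheless higher in sign with probe alone than with DMSO (median 0.0887), and 8 were higher with light alone than with probe alone (median -0.14).

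The regulators of the response are given from a list chosen apart from the 36. Of 16 tested sensors and factors of the unfolded protein response, 5, 2 and 2 were called higher at 3 h against DMSO, light alone and probe alone, 2, 2 and 0 at 6 h, and 7, 3 and 1 at 12 h, and none lower. Beside these stand the shares of all genes called in the same comparisons, 5.99%, 0.197% and 1.05% at 3 h, 0.415%, 0.218% and 0.109% at 6 h, and 10.9%, 1.29% and 0.701% at 12 h, which apply to the lists named next as well. XBP1, the transcription factor spliced by IRE1, averaged 105 ± 3.56 CPM under T-REX at 3 h (SD, n = 4), compared to 83.0 ± 4.86 with DMSO, 78.9 ± 3.04 with light alone and 86.3 ± 4.43 with probe alone. It was called against at least 2 of the 3 controls at each time, as was CREB3L2, an ER-anchored transcription factor related to ATF6. CREB3L2 averaged 229 ± 5.44 CPM under T-REX at 3 h, compared to 183 ± 5.48, 172 ± 11.5 and 213 ± 11.6 CPM in the same order of controls. Counts per gene do not separate spliced from unspliced XBP1. The phosphatase subunit PPP1R15A (GADD34) met the rule at 3 h (log2 fold change 0.38 against probe alone and 0.25 against DMSO) and ATF4 at 12 h (0.23 against light alone and 0.28 against DMSO). The sensors ERN1 (0.31 and 0.27) and EIF2AK3 (0.25 and 0.24) were called against DMSO alone, at 3 and 12 h. ATF6 had log2 fold changes from -0.01 to 0.16, and the pro-apoptotic factor DDIT3 (CHOP) from -0.33 to 0.21, without a call.

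Other ER genes were counted in the same way. Of 18 other folding factors, 0 were called higher in any of the 9 comparisons, and 1 was lower at 3 h and 3 at 12 h, against DMSO. Of 22 other ERAD factors, 1 was called, lower against DMSO at 3 h. Of 36 other factors of targeting, insertion and glycosylation, 4, 1 and 9 were called lower against DMSO at 3, 6 and 12 h, where the shares of all genes were 5.99%, 0.415% and 10.9%. Their medians there were -0.047, 0.029 and -0.125. Against the other controls, 1 was lower at 3 h (probe alone). The oligosaccharyltransferase subunit RPN2 was lower at 3 h against probe alone (-0.27) and DMSO (-0.29). The signal recognition particle subunit SRP19 was the one called higher, at 12 h (log2 fold change 0.37 against light alone and 0.44 against DMSO). Beside the fall of ERO1A, 13 other targets of hypoxia signalling were examined. At 12 h, with each control counted on its own, 9 of the 13 were called lower, not always the same genes. The medians were -0.518 (DMSO), -0.558 (light alone) and -0.496 (probe alone). In that order BNIP3, a mitophagy receptor, had log2 fold changes of -0.78, -0.81 and -0.89, and LDHA, which makes lactate, had -0.72, -0.69 and -0.63. At 3 h, 4, 0 and 3 of the 13 were called lower, and at 6 h 1, 0 and 4. Their part in the ERO1A difference was not tested.

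The second question was how the 36 genes changed between 3 and 12 h within each arm. Most fell, in every arm. By the same test in a fit of all 48 libraries, 26 of 36 (72.2%) were lower at 12 h under T-REX, 21 (58.3%) in light alone, 25 (69.4%) in probe alone and 22 (61.1%) in DMSO cells, where 20.6%, 19%, 21% and 18.4% of all tested genes were called lower. The median log2 fold change of the 36 was -0.367, -0.248, -0.322 and -0.256 in these arms, and that of all genes lay between -0.013 and 0.00974. ERO1A, with light alone, was the only member called higher (log2 fold change 0.24, adjusted p = 0.0323). That call was lost in 5 of the 8 fits without a library of the 2 groups. The same 19 genes were lower in all 4 arms, and 30 were lower in at least 1. The share of all tested genes was not taken for these counts. With only the 3 and 12 h libraries of an arm fitted, 25, 23, 26 and 16 members were lower in the same order of arms. P4HB, among the 19, lost its call in 1, 4, 5 and 3 of the 8 fits without a library, in that order. In DMSO cells, CRELD2 (3 of the 8 fits), SEC61B (2), SEL1L (1) and PDIA3 (1), also among the 19, lost theirs. With only the 2 groups fitted, the DMSO calls of CRELD2, SEC61B and SEL1L were lost (adjusted p = 0.0873, 0.0655 and 0.0963). That of P4HB under T-REX was lost there too (adjusted p = 0.123). The 6 h mean of the genes called lower lay between the 3 and 12 h means for 23 of 26, 15 of 21, 23 of 25 and 20 of 22 genes in the same order of arms. Time since transfection and any difference in handling between time points move with these comparisons and cannot be told apart from time after treatment. The libraries of the 3 times were deposited in separate tables.

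HSPA5 fell in every arm. Its log2 fold change from 3 to 12 h was -0.98 under T-REX (SE 0.07, adjusted p = 1.27e-15), -0.83 with DMSO, -0.86 with light alone and -0.93 with probe alone (SE 0.07 each), and all libraries at 12 h were below all at 3 h of the same arm. In DMSO cells alone this took HSPA5 from 257, 278, 239 and 256 CPM to 156, 138, 134 and 149 CPM. The other abundant chaperones had smaller values. HSP90B1 had -0.51, -0.40, -0.53 and -0.44 and CALR -0.51, -0.45, -0.61 and -0.50 under T-REX, in light alone, in probe alone and in DMSO cells, each called. CANX, the most abundant member per kb, had -0.06, -0.12, -0.19 and -0.13, called with probe alone and DMSO. Its call with DMSO was lost in 3 of the 8 fits without a library and with only the 2 groups fitted (adjusted p = 0.0787). CRELD2 had -1.12, -0.61, -0.53 and -0.47 and MANF -0.78, -0.52, -0.48 and -0.48, called in all arms. SDF2L1 was called under T-REX alone (-1.07, SE 0.28, adjusted p = 0.00192), with 0.16, -0.32 and -0.32 and no call in the others. The difference of its fall from the mean of the controls was -0.91 and not called (adjusted p = 0.257).

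Most of the channel and its partners were lower. SEC61A1 had log2 fold changes of -0.41, -0.35, -0.51 and -0.46 in the same order of arms, and all libraries at 12 h were below those at 3 h. The translocon-associated subunits SSR1, SSR2 and SSR3 were likewise called lower in all arms, from -0.30 to -0.59, and SSR4 in none. SEC61B fell by 0.76 on the log2 scale under T-REX and by 0.37, 0.31 and 0.26 in the controls, each called, while the gamma subunit SEC61G was called under T-REX alone (-0.36, adjusted p = 0.00321). Among the isomerases, PDIA3, PDIA4, P4HB and DNAJC10 were lower in all 4 arms (from -0.22 to -0.51), and ERO1B was called in none.

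ERAD was divided. SELENOS (-0.64, -0.40, -0.64 and -0.50), SEL1L and the derlin DERL2 (-0.47, -0.47, -0.43 and -0.35) were lower in all arms, whereas EDEM1, the mannosidase-like receptor (0.13, 0.08, 0.10 and 0.08), and OS9, the lectin that delivers glycoproteins to SEL1L, were called in none. HERPUD1 was lower under T-REX (-0.55, adjusted p = 2.42e-08) and with light alone (-0.67, adjusted p = 3.44e-10), with -0.15 and -0.10 and no call with probe alone and DMSO. T-REX and light alone were also the arms with the highest means of HERPUD1 at 3 h. By the pattern of its group means over the 12 groups (log2 CPM), HERPUD1 was most like MANF (Pearson r = 0.847), HSPA5 (0.817) and DNAJC3 (0.805), which describes 12 means of 1 set of libraries sharing depth and scaling, and least like ERO1A (-0.795).

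**Figure D3:**
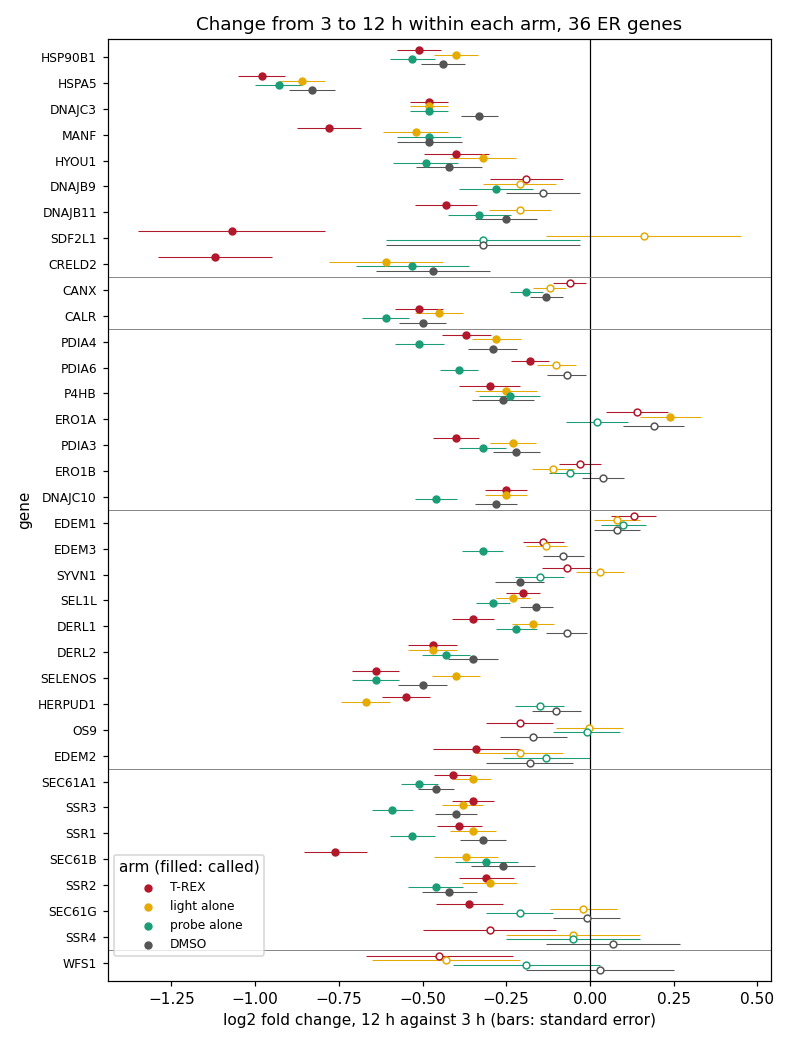
Log2 fold change from 3 to 12 h within each arm for the 36 genes, grouped by role. Bars are standard errors, filled points are called and open points are not. Points left of 0 are lower at 12 h, as for HSPA5 between -0.98 and -0.83, while ERO1A and EDEM1 lie right of 0 in all 4 arms.

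No member's T-REX effect was shown to change with time. Between 6 and 3 h, 12 and 3 h, and 12 and 6 h, the difference between T-REX and the mean of the 3 controls was called to change for 0 of the 36 (7, 7 and 3 had an unadjusted p up to 0.05, and DESeq2 called 0, 1 and 0), beside 0%, 0.116% and 0% of all genes. Of all 14685 genes, 1097, 1621 and 435 had such an unadjusted p, and DESeq2 called 0, 81 and 0. The 1 member called by DESeq2 was SEC61B, from 3 to 12 h (edgeR log2 difference -0.44, SE 0.11, adjusted p = 0.0701). With the same simulation settings, a log2 difference of 0.4 in the test from 3 to 12 h was recovered in 47% of changed genes, and one of 0.2 in 2%.

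The 9 genes with ERSE or ERSE-II were set beside the 25 with a window and neither element. From 3 to 12 h their median log2 fold change was -0.51 against -0.34 under T-REX, -0.42 against -0.25 in DMSO, -0.40 against -0.25 in light alone and -0.49 against -0.32 in probe alone cells. Called lower were 7, 6, 6 and 6 of the 9, and 17, 15, 13 and 17 of the 25, in that order of arms. At 3 h, their median T-REX difference was 0.169 against 0.096 with DMSO as the control, 0.164 against 0.108 with light alone and 0.096 against 0.015 with probe alone. At 6 h the same medians were 0.115 against 0.082, 0.12 against 0.029 and 0.092 against 0.061, and at 12 h 0.038 against 0.012, 0.133 against 0.049 and -0.007 against -0.004. ERO1B, which holds an ERSE, and EDEM1, which holds none, were both among the 6 genes lower in no arm. These medians are a description without a test.

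The fall with time was also counted in the other lists, where 20.6%, 19%, 21% and 18.4% of all genes were called lower. Of 18 other folding factors, 3, 3, 6 and 4 were called lower at 12 h under T-REX, in light alone, in probe alone and in DMSO cells, of 22 other ERAD factors 10, 11, 13 and 8, and of 36 other targeting, insertion and glycosylation factors 18, 16, 20 and 13. Of the 16 sensors and factors, 4, 8, 6 and 7 were lower, among them XBP1 (-0.54, -0.56, -0.52 and -0.62) and CREB3L2 (-0.58, -0.41, -0.58 and -0.54). Of the 13 hypoxia targets, 3, 10, 8 and 8 were called higher at 12 h, with medians of 0.119, 0.737, 0.398 and 0.391. Beside these, 3103, 2994, 3133 and 2997 of the 14685 tested genes were called higher in the same order of arms.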

How the data were processed

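RNA of 48 libraries was sequenced (TruSeq Stranded mRNA kit per the labels). According to the study's methods, ribosomal RNA depletion took the place of poly(A) selection, so the libraries were not limited to polyadenylated RNA. The deposited tables hold raw gene counts by Ensembl gene ID, which the authors made with a genome build not given in the sources used here. Their reporting summary names cutadapt, TopHat and Cufflinks for RNA-seq, without saying which program made these whole-number counts. The authors also deposited 2 scores per library, factors of unwanted variation fitted per time point, which entered only an alternative. Their log2 CPM and adjusted tables were not used.

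Gene symbols came from a reference table of gene IDs, and lengths are merged exons of GENCODE. edgeR 4.0.16 (R 4.3.3) was run with TMM factors, filterByExpr (which removed 0 genes), robust dispersions and quasi-likelihood F-tests, with Benjamini-Hochberg adjustment over 14685 genes. Standard errors are the size of the log2 fold change divided by the root of F. Comparisons of arms used the 16 libraries of a time, and those of times all 48. The replicates are described as independent biological replicates. Whether replicate numbers pair libraries was checked by correlating the deviations of same-numbered libraries from their group means. For T-REX at 3 and 12 h all 4 pairs were over 0.1 (0.3 to 0.411), a pairing taken from the data and not from the labels, and no other 2 groups compared directly met this. The script was tested on simulated data. Alternatives were DESeq2 1.42.0, its size factors, no filter, a replicate block, the deposited factors, fits of only the groups compared, and leaving out each library.

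The members and gene lists were chosen with earlier results of these data known. Values per library are given for members that, at any time, were called one way against 2 or more of the 3 controls and for HSPA5, HSP90B1, SEC61A1 and HERPUD1. Up to 4 uncalled members per role were named by level, and other listed genes if they met the same rule, with XBP1, ATF6, CREB3L2, DDIT3, ATF4, ERN1 and EIF2AK3 in any case. Members named outside this rule are marked, and SDF2L1, CRELD2, EDEM2 and the members listed by their change with time were also chosen after their values were seen. PDIA3 and SSR4 have expressed pseudogenes (PDIA3P1, SSR4P1) with which reads may be shared.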

Additional observations from a re-analysis of the deposited data

Results flagged for a closer look

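In 9 of 132 groups of 4 libraries (11 members in 12 groups), the gap between 1 library and its nearest neighbour took more of the group's range than Dixon's 95% critical value allows. Chance flags about 1 group in 20. At 3 h these were SEC61A1 with DMSO (replicate 3, 343 CPM, the others 368 to 371), PDIA6 under T-REX (replicate 4, 140 CPM, the others 161 to 164) and DERL1 with probe alone (replicate 4, 65.8 CPM, the others 72.6 to 73.4). At 6 h they were HSP90B1 with light alone (replicate 2, 582 CPM, the others 502 to 507), SELENOS with probe alone (replicate 1, 25.7 CPM, the others 23.7 to 24), PDIA6 with DMSO (replicate 1, 146 CPM, the others 163 to 165) and DERL1 under T-REX (replicate 4, 61.0 CPM, the others 65.9 to 66.7). At 12 h they were SSR3 with DMSO (replicate 3, 263 CPM, the others 211 to 219) and PDIA6 under T-REX (replicate 2, 143 CPM, the others 136 to 137). The cause was not tested.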

How the results depend on the processing

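Counts of members called, given as alternative against main, changed as follows. In order light alone, probe alone and DMSO, T-REX at 3 h had 4, 3 and 6 calls by DESeq2 (against 1, 1 and 6), 14, 6 and 13 with the deposited factors, and 0, 0 and 2 with only the arms compared. At 6 h it had 0, 1 and 4 by DESeq2 (against 0, 0 and 1), 10, 3 and 12 with the factors, and 0, 3 and 5 with the arms compared. At 12 h it had 3, 0 and 5 by DESeq2 (against 1, 0 and 4), 12, 7 and 10 with the factors, and 10, 3 and 1 with the arms compared. For all genes, DESeq2 called 222, 521 and 1161 at 3 h, 153, 57 and 288 at 6 h, and 392, 241 and 2069 at 12 h. Only the arms compared gave 3, 3 and 187, then 9, 88 and 128, then 1127, 389 and 366. The shares in the main fit and with the factors are given above. Against at least 2 of 3 controls at 3, 6 and 12 h (2, 0 and 1), DESeq2 gave 6, 0 and 2, the factors 11, 7 and 8, and the arms compared 0, 1 and 1. The same counts for all genes were 484, 71 and 394, then 2114, 344 and 1315, then 5, 42 and 382. Between controls (light alone against DMSO, probe alone against DMSO, light alone against probe alone), DESeq2 gave 1, 0 and 6 at 3 h and 0, 3 and 2 at 12 h. The factors gave 2, 6 and 19 at 3 h, 6, 4 and 2 at 6 h and 7, 15 and 11 at 12 h, and the arms compared 0, 1 and 6 at 3 h and 0, 0 and 7 at 12 h. For all genes, DESeq2 gave 17, 1 and 203 at 3 h and 20, 1279 and 258 at 12 h. With the factors these were 858, 183 and 2176 at 3 h, 1797, 360 and 450 at 6 h, and 1022, 3298 and 1231 at 12 h. With only the arms compared they were 1, 2 and 156 at 3 h and 2, 14 and 709 at 12 h. DESeq2's size factors gave 1 for light alone against probe alone at 3 h, with 36 for all genes. The T-REX effect had 1 call by DESeq2 from 3 to 12 h, and 1 (3 to 6 h) and 6 (3 to 12 h) with the factors. The same counts for all genes were 81, 383 and 1026.

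Deviations of same-numbered libraries correlated from -0.636 to 0.572 between arms within a time (72 pairs, 30 over 0.1) and from -0.391 to 0.411 between 3 and 12 h within an arm (16 pairs, 10 over 0.1). Among the groups compared, only T-REX at 3 and 12 h had all 4 pairs over 0.1, and there the replicate block gave 27 calls against 26. Elsewhere the libraries shared only a number. A replicate block gave 2 calls of T-REX against probe alone at 3 h, 2 against light alone at 12 h, 2 against at least 2 of 3 controls at 12 h and 1 for light alone against probe alone at 3 h, and for time within an arm 27, 23, 25 and 22 (against 26, 22, 25 and 22, either direction). For all genes the block gave 203, 185, 198 and 33, and for time 6176, 5833, 6274 and 5779.

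Leaving out each library, T-REX at 3 h had 0 to 2 calls against light alone, 1 to 2 against probe alone, 3 (without DMSO replicate 1) to 8 (without T-REX replicate 1) against DMSO and 1 to 3 against at least 2 of 3 controls. At 6 h it had 0 to 2 against light alone (2 without light alone replicate 4) and 0 to 8 against DMSO (8 without light alone replicate 3). At 12 h it had 0 to 5 against light alone (5 without DMSO replicate 3), 0 to 1 against probe alone (1 without DMSO replicate 3), 3 to 8 against DMSO (8 without DMSO replicate 4) and 0 to 2 against at least 2 of 3 controls. Between controls, light alone against probe alone had 0 to 6 at 3 h (6 without T-REX replicate 3) and 0 to 5 at 12 h (5 without DMSO replicate 3), light alone against DMSO 0 to 2 at 6 h, and probe alone against DMSO 0 to 9 at 12 h (9 without DMSO replicate 1). The T-REX effect from 3 to 12 h had 0 to 1. The share of all tested genes is not given for these fits, so these ranges are no result about the members. The counts for time within an arm stayed within 1.5 times throughout, and of the 95 calls, 80 were lost in no fit without a library of the 2 groups. No called member changed direction in any of the 5365 values recomputed for member calls. Causes were not tested.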
